A study of Homo sapiens with 8 samples.

Results

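Amino acid transporter transcripts were followed in 2 lines of brain-metastatic breast cancer cells, 231BrM and SKBrM3 by their labels, with and without knockdown of the receptor tyrosine kinase MET. The genes were chosen by symbol: every gene of the array whose symbol starts with SLC1A, SLC3A, SLC6A, SLC7A, SLC36A, SLC38A or SLC43A, which gave 60 of 18239 genes. Both lines carried a doxycycline-inducible short hairpin against MET in all 4 groups and were grown in DMEM with fetal bovine serum. The control groups received no doxycycline, and the treated groups received it for 48 h (100 ng, for which the labels state no volume). Each group held 2 single-colour Affymetrix arrays of total RNA. No group received doxycycline without the hairpin, so what the drug does and what the hairpin does cannot be told apart. Whether the 2 arrays of a group came from separate cultures is not in the labels, and p-values therefore rest on a spread between arrays that may be technical. Whether each line was 1 clone is not given in the sources used here.

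Cells take up amino acids through solute carriers that differ in what they carry and in what drives them. SLC7A5 (LAT1) exchanges leucine and other large neutral amino acids, and it reaches the cell surface as a pair with SLC3A2, the CD98 heavy chain. SLC1A5, SLC38A1 and SLC38A2 carry glutamine and small neutral amino acids, SLC7A1 carries arginine and lysine, and SLC7A11 imports cystine in exchange for glutamate. Proton-coupled SLC36A1 and the arginine-sensing SLC38A9 sit on lysosomes, where amino acids signal to the growth kinase mTORC1. SLC43A1 (LAT3) and SLC43A2 (LAT4) let branched-chain amino acids pass down their gradient. The symbols also gather relatives with other cargo, such as SLC6A3 (dopamine), SLC6A4 (serotonin), SLC6A6 (taurine), SLC6A8 (creatine) and SLC43A3 (purine nucleobases). SLC7A6OS, which lies against SLC7A6, is no transporter and is a member only by its symbol.

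Values are log2 signals, so a difference of 1 is a doubling, and a fold is derived from such a difference. Each gene was read by 1 probe set, the one with the highest mean over the 8 arrays, and was tested if it exceeded a signal of 4.41 on at least 2 arrays. Of the 60 members, 41 passed this filter: 4 of 7 SLC1A genes, 1 of 2 SLC3A genes, 12 of 18 SLC6A genes, 8 of 14 SLC7A genes, 4 of 4 SLC36A genes, 9 of 12 SLC38A genes and 3 of 3 SLC43A genes. The other 19 lay between 3.14 and 4.52. Among them, 17 exceeded the filter on 0 arrays and 2 on 1 array. They include the glutamate carriers SLC1A1, SLC1A2 and SLC1A6, the noradrenaline carrier SLC6A2, and SLC3A1 with its partner SLC7A9, which take up cystine in kidney. The rest of the 19 were SLC6A7, SLC6A11, SLC6A15, SLC6A16, SLC6A20, SLC7A4, SLC7A7, SLC7A10, SLC7A13, SLC7A14, SLC38A4, SLC38A5 and SLC38A8.

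MET itself fell in both lines, from 9.45 and 9.26 to 5.85 and 5.35 in 231BrM and from 9.25 and 9.20 to 5.76 and 5.71 in SKBrM3. The arrays labelled SKBrM3 did not carry the signature of the SKBR3 line. ERBB2, which SKBR3 cells amplify, read 6.70 to 7.11 there against 6.76 to 6.89 in 231BrM, E-cadherin (CDH1) stayed below the filter on all 8 arrays, and vimentin (VIM) read 12.7 to 12.8. Of 12 SKBR3 markers measured, 9 were tested, of which 5 were called higher in 231BrM controls and 1 in SKBrM3 controls. FOXA1 read 6.39 and 6.38 in SKBrM3 controls against 5.03 and 5.01 in 231BrM controls. Of 11 mesenchymal markers of the MDA-MB-231 line measured, VIM among them, 6 were called higher in 231BrM controls and 0 in SKBrM3 controls. Over all genes tested, 19.8 percent were called higher in 231BrM controls and 19.9 percent in SKBrM3 controls. SPARC read 7.07 and 6.83 in 231BrM controls against 4.19 and 4.24 in SKBrM3 controls. Each SKBrM3 result below therefore belongs to the arrays labelled SKBrM3. The 231BrM doxycycline arrays lay further apart than the other pairs: 4 of the 41 tested members differed by over 0.3 within that pair, and 0, 0 and 1 within the others. Replicate 1 of that group had an actin 3' minus 5' signal of 1.24, against 0.46 to 0.59 on the other 7 arrays. Without it, the 231BrM doxycycline difference turned its sign in 9 of the 41 tested members and moved by over 1.5 times with the same sign in 17, none of them called with or without it. Where a 231BrM difference of the probe set used moved that far and is printed below, the value without replicate 1 stands beside it. Differences of other probe sets are given with that array included. Of the markers of other cell types, 1 of 3 for leukocytes (PTPRC), 1 of 3 for endothelium (CDH5), 3 of 4 for fibroblasts (COL3A1, DCN, LUM) and 1 of 4 for brain cells (AQP4) lay below the filter on all 8 arrays. CD3E, CD68, PECAM1, VWF, COL1A1, GFAP, RBFOX3 and SNAP25 passed it, CD68 at 8.17 to 8.37. The summed levels lay between 16.8 and 17.3 for leukocytes, 14.5 and 14.8 for endothelium, 14.8 and 15.5 for fibroblasts and 18.6 and 19.8 for brain cells, and their part in the results was not tested.

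In the arrays labelled SKBrM3, doxycycline raised 2 transporter transcripts and lowered 2, and left the other 37 tested members without a call. SLC43A1, the branched-chain carrier LAT3, rose 1.80-fold, and SLC36A1, the proton-coupled carrier PAT1, rose 1.33-fold. SLC6A9, the glycine carrier GlyT1, fell 1.37-fold, and SLC38A12, a little-studied SLC38 relative formerly named TMEM104, fell 1.32-fold. A gene is called where its limma p, adjusted over all 13002 genes tested, is under 0.05. At that threshold 3.43 percent of all genes were called, 1.15 percent higher and 2.28 percent lower, which is the background for these 4 calls among 41 members. At an unadjusted limma p under 0.05, 5 members were higher and 6 lower, against 10.4 and 9.81 percent of all genes. Both treated arrays lay above both controls for 15 members and below them for 13, against 32.3 and 27.2 percent of all genes. The median difference over the 41 members was -0.03, against 0.01 over all genes tested.

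SLC43A1 read 5.84 and 5.97 in SKBrM3 controls and 6.85 and 6.65 with doxycycline. Both treated arrays lay above both controls, by more than the distance between replicates of either group. The difference was 0.84 (standard error 0.094, 95% interval 0.63 to 1.06, limma adjusted p = 0.00308). In 231BrM the same transcript read 5.03 and 5.09 without doxycycline and 5.12 and 5.03 with it. These 4 arrays overlap, and the difference was 0.01 (limma adjusted p = 0.969), or -0.03 without doxycycline replicate 1. The 231BrM readings were low, just above the array medians of 4.92 to 4.97, and their signal over background is unknown. The SKBrM3 effect exceeded the 231BrM effect by 0.83 (standard error 0.133, 95% interval 0.53 to 1.13), with an unadjusted limma p of 0.000186 that became 0.186 after adjustment, so a difference between the lines is not called. SLC43A1 was read by a single probe set, so no other probe set could be set beside it.

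SLC36A1 read 6.80 and 6.78 in SKBrM3 controls and 7.15 and 7.25 with doxycycline. In 231BrM it read 6.61 and 6.46 without the drug and 6.98 and 6.86 with it. In both lines the treated arrays lay wholly above the controls. The difference was 0.41 (standard error 0.088, limma adjusted p = 0.0421) in SKBrM3 and 0.38 (limma adjusted p = 0.233) in 231BrM. Without 231BrM doxycycline replicate 1 the 231BrM difference was 0.32. The SKBrM3 rise depends on the probe set: 4 further SLC36A1 probe sets pass the filter, with -0.36, -0.04, -0.03 and 0.11, and averaging all its probe sets gave 0.0069 (limma adjusted p = 0.969). In 231BrM all 5 gave positive differences, from 0.03 to 0.38.

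SLC6A9 read 6.74 and 6.62 in SKBrM3 controls and 6.19 and 6.26 with doxycycline, a fall of both arrays below both controls. The difference was -0.46 (standard error 0.083, limma adjusted p = 0.0241). In 231BrM its arrays moved the other way, from 7.05 and 6.93 to 7.13 and 7.14, a difference of 0.14 that did not pass. SLC38A12 read 6.65 and 6.69 in SKBrM3 controls and 6.25 and 6.29 with doxycycline. The groups again did not overlap, and the difference was -0.40 (standard error 0.075, limma adjusted p = 0.0262). In 231BrM it read 6.83 and 6.85, then 6.94 and 6.86, a difference of 0.06, or 0.02 without doxycycline replicate 1. Both falls depend on the probe set. The other 3 SLC6A9 probe sets that pass gave 0.39, -0.17 and -0.18, and the other 2 of SLC38A12 gave -0.09 and 0.19.

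**Figure D1:**
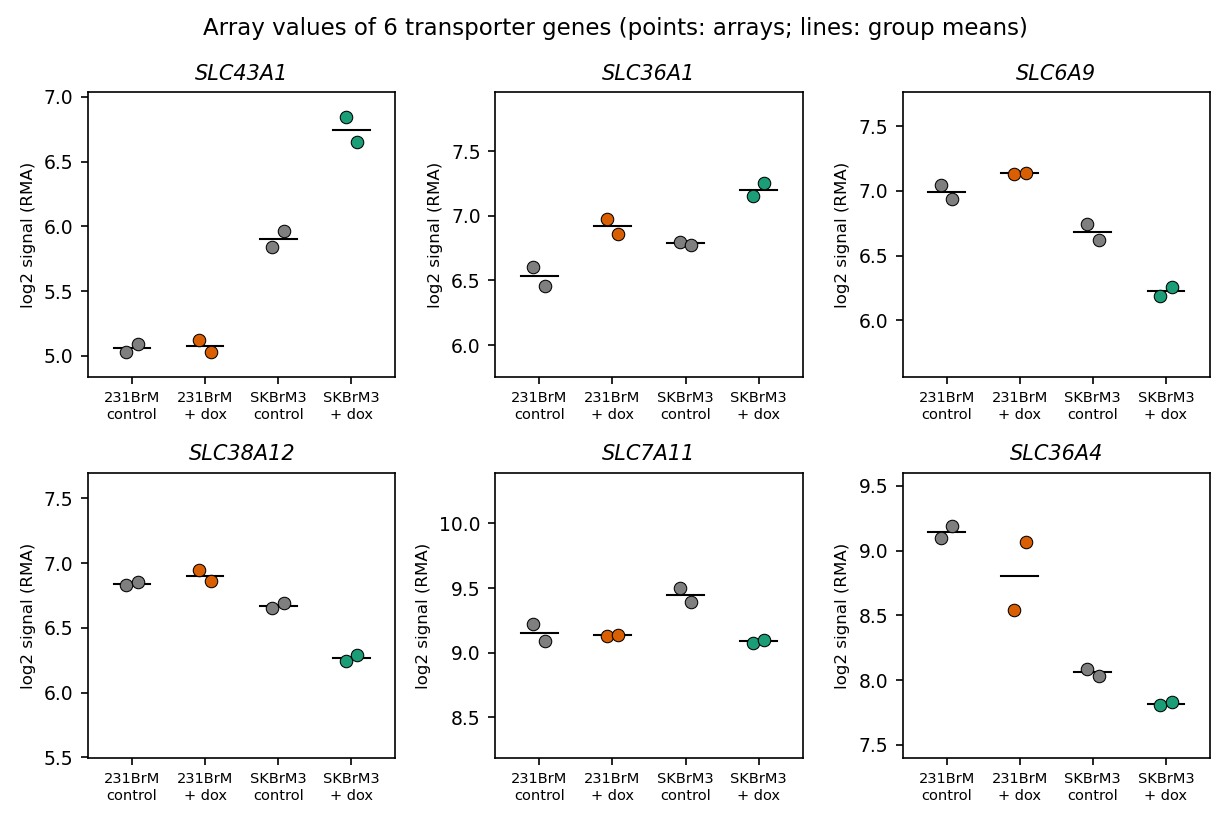
Log2 signal (RMA, vertical axis) of SLC43A1, SLC36A1, SLC6A9, SLC38A12, SLC7A11 and SLC36A4 on each of the 8 arrays, grouped by line and doxycycline; points are arrays, lines are means of 2, and each panel spans the same number of log2 units. SLC43A1 goes from 5.84 and 5.97 to 6.85 and 6.65 in SKBrM3 and stays between 5.03 and 5.12 in 231BrM, while SLC36A4 separates the lines.

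The calls for SLC36A1, SLC6A9 and SLC38A12 also depend on single arrays. Without either 231BrM control array, or without any 1 of the 4 SKBrM3 arrays, SLC43A1 was the 1 member called, though the 3 other differences kept their signs, at 0.36 to 0.46 for SLC36A1, -0.52 to -0.39 for SLC6A9 and -0.42 to -0.38 for SLC38A12. Without either 231BrM doxycycline array 7 members were called. SLC43A1 was called without each of the 8 arrays in turn, at differences from 0.74 to 0.94.

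**Figure D2:**
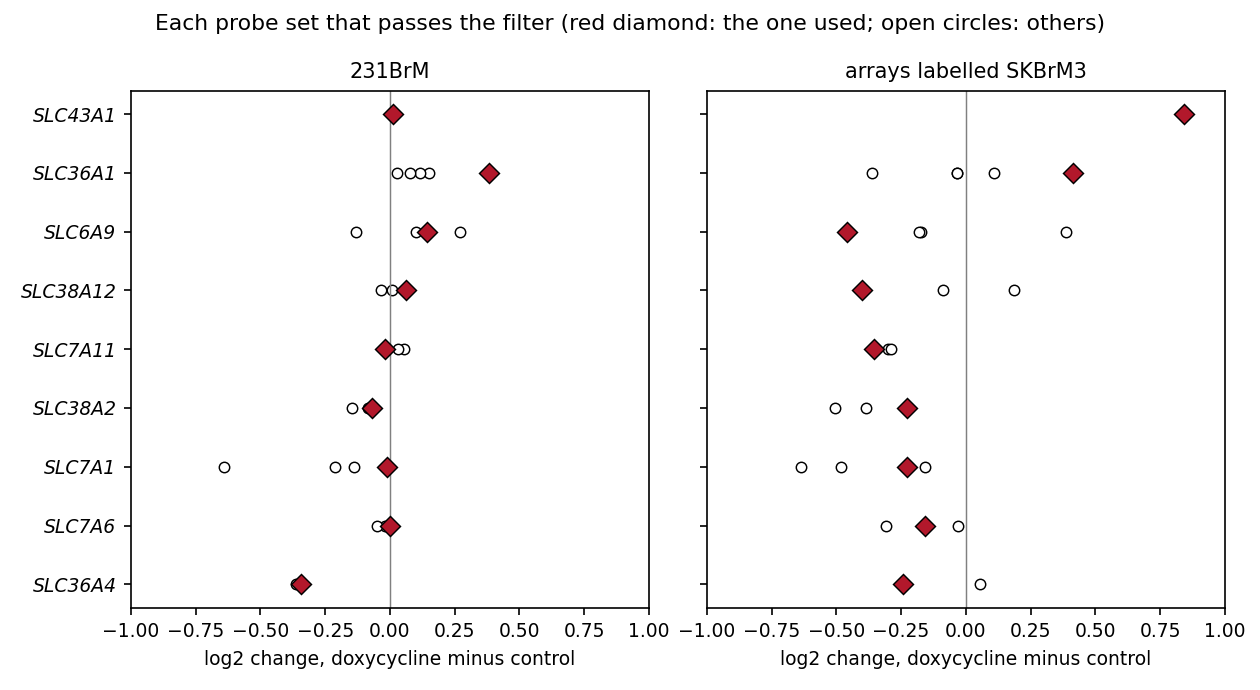
Log2 difference with doxycycline (horizontal axis) for every probe set that passes the filter, for 9 members, in 231BrM and in the arrays labelled SKBrM3; the red diamond marks the probe set used. The SLC7A11 probe sets lie together at -0.35 to -0.29 in SKBrM3, while those of SLC36A1 run from -0.36 to 0.41 and those of SLC6A9 from -0.46 to 0.39.

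The promoter sequences of the 2 members called higher in SKBrM3 are shown because they share a motif that few promoters hold. The SLC36A1 call depends on the probe set, and whether the motif has a part in either difference was not tested. RefSeq promoters on GRCh38.p14, 250 bases before to 50 after each start, matched 46 of the 60 members with 68 promoters. A total of 4 motifs, chosen with the results known, were searched on both strands. GTCACGTG, the element bound by the lysosomal regulators TFEB and TFE3, was in 2.4 percent of all 35116 promoters and in 3 of the 68 member promoters. These were 1 each of SLC43A1, SLC36A1 and SLC1A5, which have 2, 2 and 3 promoters. The promoter that holds the motif is the one shown, and the others of these genes lack it. The 150 bases before the start are printed 5′ to 3′ on the gene's strand, with GTCACGTG or its reverse complement in capitals.
SLC43A1 (chr11:57515703-57515852, minus strand): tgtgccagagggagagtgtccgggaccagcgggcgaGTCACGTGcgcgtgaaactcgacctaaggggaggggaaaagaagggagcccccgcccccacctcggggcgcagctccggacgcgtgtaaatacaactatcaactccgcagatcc
SLC36A1 (chr5:151447453-151447602, plus strand): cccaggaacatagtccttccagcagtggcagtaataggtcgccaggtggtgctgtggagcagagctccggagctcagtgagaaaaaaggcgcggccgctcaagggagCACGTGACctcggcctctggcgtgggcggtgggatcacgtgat
SLC1A5 (chr19:46787294-46787443, minus strand): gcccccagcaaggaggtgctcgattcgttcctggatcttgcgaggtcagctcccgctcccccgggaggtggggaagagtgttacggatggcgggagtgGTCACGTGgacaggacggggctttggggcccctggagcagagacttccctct
Counted from the start, the motif begins at -114, -43 and -52, in that order. SLC1A5 holds it too, and its doxycycline differences were -0.13 in SKBrM3 and -0.02 in 231BrM, neither called. CACGTG, the E-box contained in GTCACGTG, was in 7.26 percent of all promoters and in 10 of the 68 member promoters, 1 each of 10 members. TGATGNAA, a composite element of ATF4 and C/EBP factors that act in amino acid shortage, was in 3.62 percent of all promoters. It was in 6 of the 68 member promoters, 1 each of SLC1A3, SLC1A4, SLC1A5, SLC38A1, SLC3A2 and SLC7A1. TGACNNNGC, the antioxidant element of NRF2, was in 13.3 percent of all promoters and in 7 of the 68 member promoters. These were 1 each of SLC1A3, SLC1A5, SLC3A2, SLC7A1, SLC7A5, SLC7A6 and SLC7A7. A match describes letters in a window and is not evidence of binding.

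Of the main carriers of leucine and glutamine, 0 were called with doxycycline in either line. SLC7A5 read 9.30 and 9.20 in SKBrM3 controls and 9.28 and 9.24 with doxycycline, a difference of 0.01. Its partner SLC3A2 read 9.50 and 9.44, then 9.44 and 9.49, a difference of 0.00. The 95% intervals, -0.29 to 0.31 for SLC7A5 and -0.27 to 0.26 for SLC3A2, leave room for moderate changes in either direction. In SKBrM3 6 of the 7 SLC3A2 probe sets that pass were negative, from -0.29 to 0.01 over all 7, and the other of SLC7A5 gave -0.24. In 231BrM both were lower on doxycycline replicate 1 alone: SLC7A5 read 9.68 and 9.62 without the drug and 9.28 and 9.72 with it, and SLC3A2 9.39 and 9.44, then 9.15 and 9.53. The groups overlap for both. Their 231BrM differences were -0.15 and -0.08 with that array, and 0.07 and 0.11 without it. The other SLC7A5 probe set gave -0.25 there, and the 7 of SLC3A2 ran from -0.31 to 0.10. Except for the SLC3A2 probe set at 0.10, these too were lower on doxycycline replicate 1 alone. The exception read 9.11 on both controls, then 9.16 and 9.27. The other SLC7A5 probe set read 6.15 and 6.67 without the drug, then 5.73 and 6.59. The SLC3A2 probe set at -0.31 read 8.96 and 9.07, then 8.19 and 9.23.

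Among the glutamine carriers, SLC1A5 read 9.93 and 10.10 in SKBrM3 controls and 9.98 and 9.80 with doxycycline. SLC38A1 read 10.48 on both SKBrM3 controls and 10.49 and 10.41 with doxycycline, and SLC38A2 read 10.34 and 10.42, then 10.16 and 10.15. Of these, SLC38A2 alone had treated arrays below both controls. Its difference was -0.23 (limma adjusted p = 0.144), and its 2 other probe sets that pass gave -0.39 and -0.50. In 231BrM SLC1A5 read 10.45 and 10.29 without doxycycline and 10.37 and 10.33 with it, SLC38A1 10.45 and 10.39, then 10.26 and 10.44, and SLC38A2 10.66 and 10.59, then 10.54 and 10.57. Those differences were -0.02, -0.07 and -0.07. Without doxycycline replicate 1 they were -0.04 for SLC1A5 and 0.02 for SLC38A1. SLC38A2 was again the one whose treated arrays lay below both controls. SLC7A1, the arginine and lysine carrier CAT1, read 9.55 and 9.42 in SKBrM3 controls and 9.27 and 9.25 with doxycycline. Its difference was -0.23 (limma adjusted p = 0.239), and all 4 of its probe sets gave negative differences, from -0.64 to -0.16. In 231BrM the probe set used gave -0.01, or -0.11 without doxycycline replicate 1. All 4 gave -0.64 to -0.01, and the one with -0.64 read 7.52 on doxycycline replicate 1 against 8.71 on replicate 2.

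**Figure D3:**
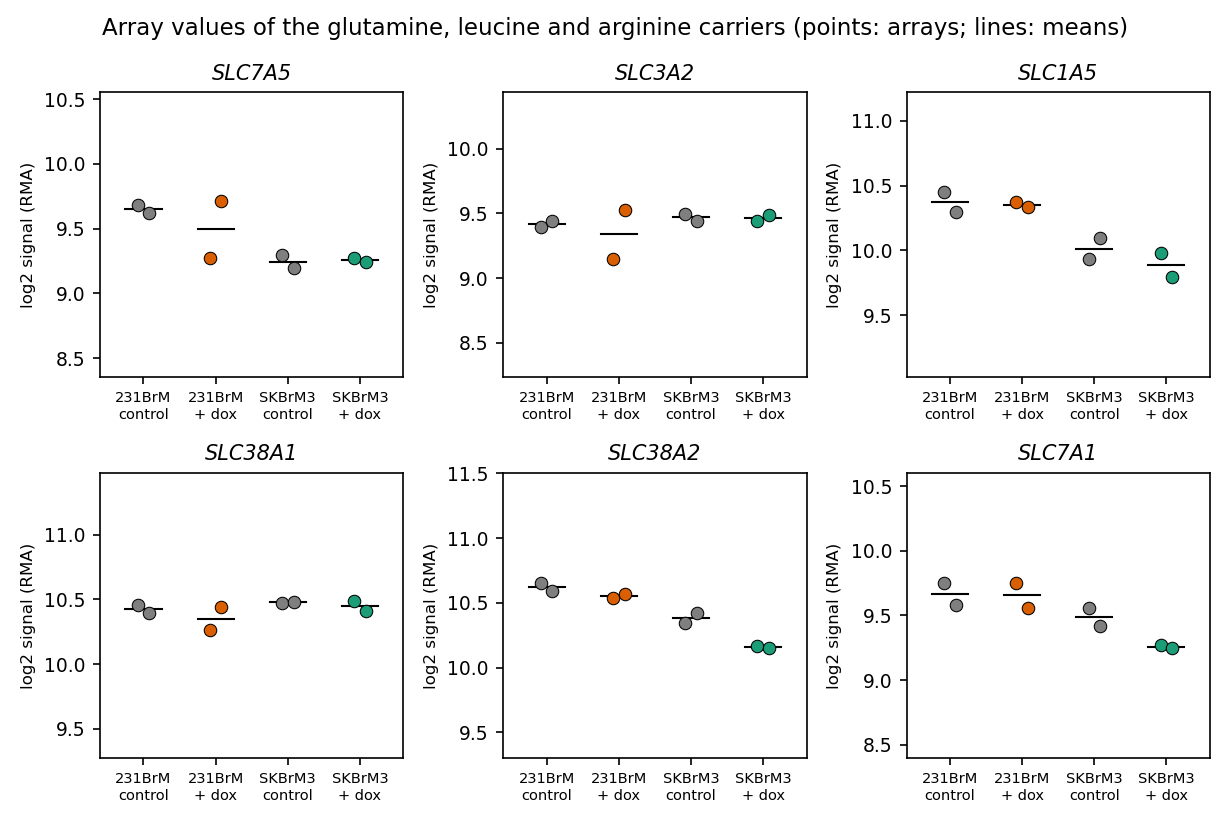
Log2 signal (RMA, vertical axis) of SLC7A5, SLC3A2, SLC1A5, SLC38A1, SLC38A2 and SLC7A1 on each of the 8 arrays, grouped by line and doxycycline; points are arrays, lines are means of 2, and each panel spans the same number of log2 units. SLC38A2 and SLC7A1 lie lower with doxycycline in SKBrM3, by 0.23 each, and the SLC7A5 and SLC3A2 arrays of 231BrM with doxycycline lie apart from each other.

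SLC7A11, the cystine carrier xCT, read 9.50 and 9.39 in SKBrM3 controls and 9.08 and 9.10 with doxycycline. Both treated arrays lay below both controls, and the difference of -0.35 (standard error 0.082) narrowly missed the threshold (limma adjusted p = 0.0562). Its 3 probe sets gave similar SKBrM3 differences, -0.35, -0.30 and -0.29. In 6 of 17 alternatives SLC7A11 was called lower, among them array weights and the fit to the 4 SKBrM3 arrays alone. In 231BrM it read 9.22 and 9.09 without the drug and 9.13 and 9.14 with it, a difference of -0.02.

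None of the remaining carriers was called with doxycycline. SLC6A6, the taurine carrier, read 9.43 and 9.32 in 231BrM controls and 9.67 and 9.61 with doxycycline, and 9.26 and 9.34, then 9.50 and 9.54, in SKBrM3. Its treated arrays were above the controls in both lines, with differences of 0.27 and 0.21 (limma adjusted p = 0.386 and 0.184). Its other probe sets did not share this direction throughout: of the 4 that pass, the one used included, 3 gave a positive difference in 231BrM and 2 in SKBrM3. SLC38A9, the lysosomal arginine sensor, read 6.93 and 6.84 in 231BrM controls and 7.12 and 6.85 with doxycycline, and 6.92 and 6.79, then 6.93 on both treated arrays, in SKBrM3. Its differences of 0.10 and 0.07 were each smaller than the wider replicate gap of the line, and that in 231BrM was -0.03 without doxycycline replicate 1. In SKBrM3 the treated arrays, at 6.927 and 6.926, lay just above both controls, at 6.919 and 6.790.

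The relatives of SLC43A1 were not called in either line. SLC43A2 (LAT4) read 5.24 and 5.04 in SKBrM3 controls and 5.07 and 5.08 with doxycycline, and SLC43A3 read 9.99 and 9.88, then 9.94 and 10.03. Their arrays overlap, with differences of -0.07 and 0.05, and in 231BrM they were -0.05 and -0.03, or -0.08 and -0.16 without doxycycline replicate 1. The test of 1 gene's change against that of another was not made. SLC36A2 and SLC36A3, kin of SLC36A1 that sit beside it in the genome, differed by -0.06 and -0.12 in SKBrM3 and by 0.02 and -0.02 in 231BrM, with 0 calls; without doxycycline replicate 1 the latter were -0.10 and -0.0014.

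Among glutamate and neutral carriers, SLC1A4 (ASCT1), which exchanges alanine, serine and cysteine, read 5.39 and 5.35 in SKBrM3 controls and 5.43 and 5.54 with doxycycline, and 5.34 and 5.31, then 5.10 and 5.30, in 231BrM. The treated arrays lay above the controls in SKBrM3 and below them in 231BrM, with differences of 0.12 and -0.12 that did not pass. Its 5 probe sets that pass the filter disagreed in sign. They ran from -0.27 to 0.12 in SKBrM3, 2 of them positive, and from -0.12 to 0.02 in 231BrM, 3 of them positive. Without 231BrM doxycycline replicate 1 the 231BrM difference of the SLC1A4 probe set used was -0.02. The glutamate carrier SLC1A3 (EAAT1) read 4.12 to 4.63 over the 8 arrays, near the filter, and differed by 0.12 in 231BrM (0.05 without doxycycline replicate 1) and 0.10 in SKBrM3. SLC1A7, a glutamate carrier known from the retina, read 5.49 and 5.40 in SKBrM3 controls and 5.74 and 5.66 with doxycycline, a difference of 0.26 (limma adjusted p = 0.111). In 231BrM it read 5.33 and 5.37, then 5.36 on both arrays. SLC38A7, which exports glutamine from lysosomes, differed by 0.31 in SKBrM3 (limma adjusted p = 0.197), from 6.87 and 7.13 to 7.28 and 7.34.

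The SLC6A family, driven by sodium and chloride, held 12 tested members. With doxycycline 1 of them, SLC6A9, was called in SKBrM3 and 0 in 231BrM, against 3.43 and 0.162 percent of all genes. SLC6A17 read 5.74 and 5.84 in 231BrM controls and 6.27 and 6.09 with doxycycline, and 5.96 and 6.11, then 6.12 and 6.18, in SKBrM3. It was higher on every treated array than on the controls of its line, with differences of 0.39 (limma adjusted p = 0.254) and 0.11 (limma adjusted p = 0.54). SLC6A19, the neutral carrier of gut and kidney, read 6.41 and 6.51 in SKBrM3 controls and 6.25 and 6.01 with doxycycline, a difference of -0.33 (limma adjusted p = 0.112). The creatine carrier SLC6A8 read 4.76 to 5.11 over the 8 arrays and differed by 0.14 in 231BrM (0.03 without doxycycline replicate 1) and 0.15 in SKBrM3. SLC6A14, a broad carrier of neutral and cationic amino acids, read 4.29 to 4.44 and differed by -0.04 in 231BrM and 0.12 in SKBrM3. It exceeded the filter only on the 231BrM controls and the SKBrM3 doxycycline arrays, the higher group in each line. The dopamine carrier SLC6A3 (0.21 and -0.10) and the serotonin carrier SLC6A4 (-0.07 and -0.01) were not called with doxycycline, in 231BrM and SKBrM3 in that order, at signals of 4.23 to 4.94. Without doxycycline replicate 1 the 231BrM difference of SLC6A4 was -0.01.

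In 231BrM, 0 of the 41 tested members were called, against a background of 0.162 percent of all genes, all of them lower. At an unadjusted limma p under 0.05, 6 members were higher and 2 lower, against 6.15 and 3.74 percent of all genes. Treated arrays lay wholly above the controls for 13 members and wholly below for 5, against 25.8 and 12.1 percent of all genes. The median difference over the members was 0.02, against 0.05 over all genes. Differences ran from -0.34 for SLC36A4, the SLC36A1 relative PAT4, to 0.39 for SLC6A17, which carries neutral amino acids into synaptic vesicles. SLC38A11 exceeded the filter on the 231BrM doxycycline arrays alone, so it was tested only through the group where it was high. SLC36A4 read 9.10 and 9.19 in controls and 8.54 and 9.06 with doxycycline, so most of its difference came from replicate 1, and without that array it was -0.08. Leaving out doxycycline replicate 2 instead gave 5 calls, SLC36A1, SLC36A4, SLC38A11, SLC6A17 and SLC7A5.

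**Figure D4:**
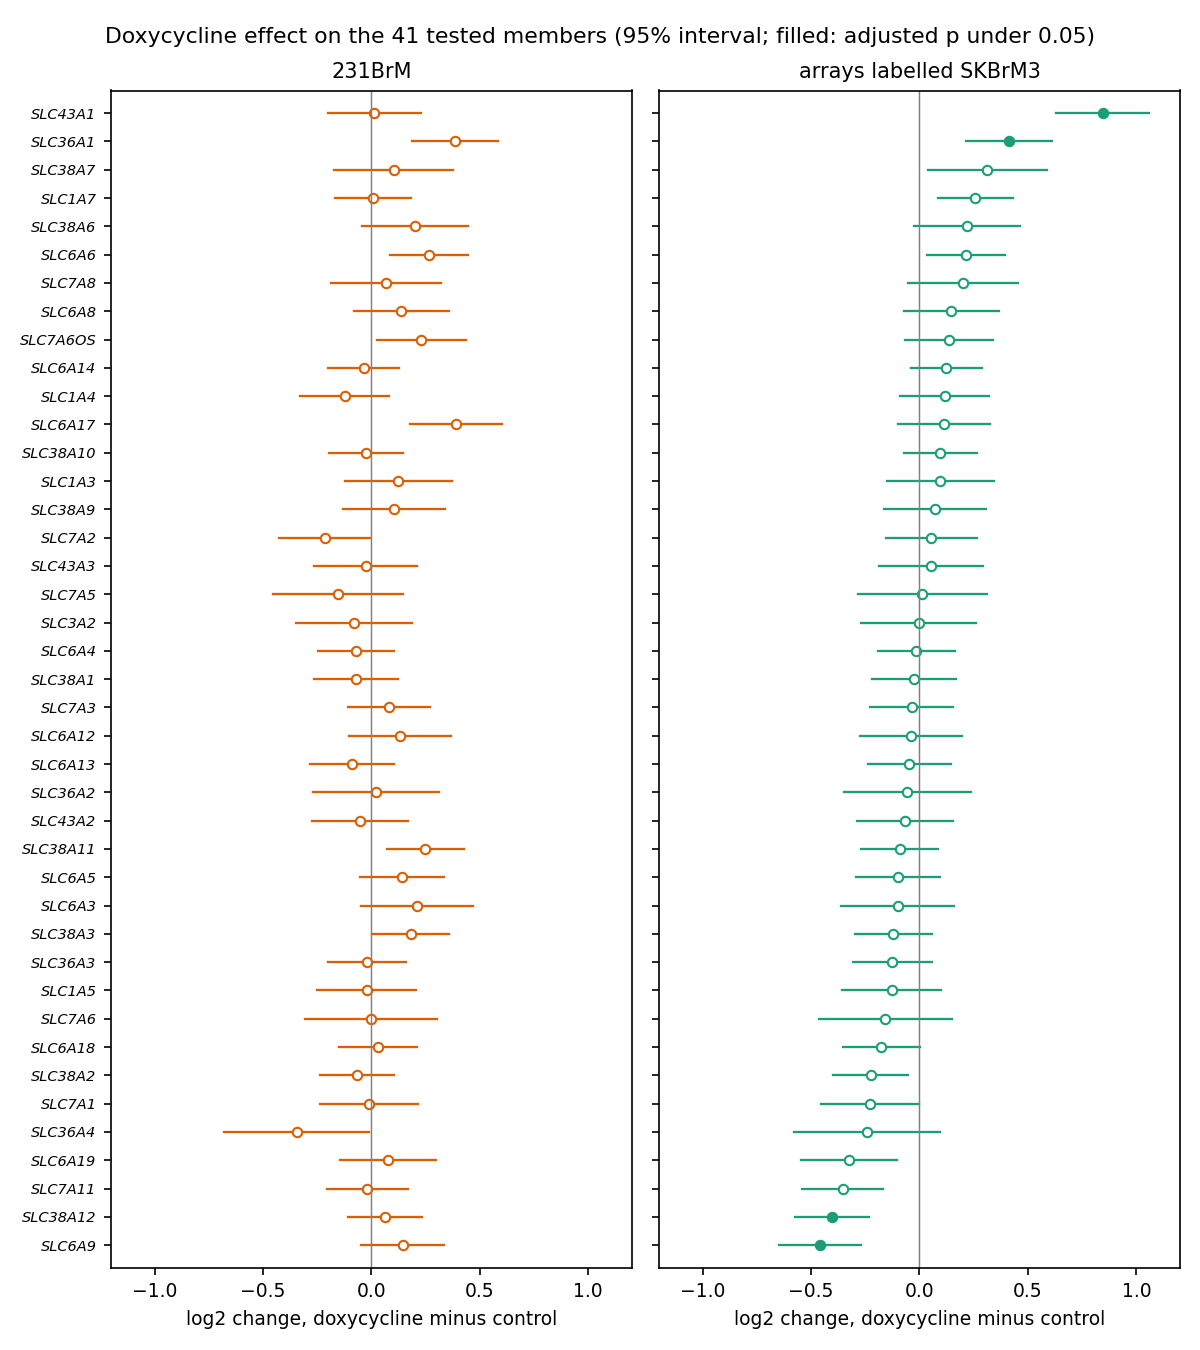
Log2 difference with doxycycline (horizontal axis) and 95% interval of the 41 tested members in 231BrM and in the arrays labelled SKBrM3; filled points are called at a limma adjusted p under 0.05. The 4 filled points lie in SKBrM3: SLC43A1 at 0.84, SLC36A1 at 0.41, SLC38A12 at -0.40 and SLC6A9 at -0.46.

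Averaged over both lines, SLC43A1 (0.43) and SLC36A1 (0.40) were called higher, each at a limma adjusted p of 0.0133, and 0 members were called lower. Over all genes 3.04 percent were called, 0.969 percent higher and 2.07 percent lower. The average for SLC43A1 holds a large difference in SKBrM3 and almost none in 231BrM, while that of SLC36A1 holds a similar one in each. SLC36A1 lost its call in the average with the mean of all its probe sets, which gave 0.07. The count of called members ran from 0, without 231BrM control replicate 2, SKBrM3 doxycycline replicate 1 or either SKBrM3 control, to 10 without 231BrM doxycycline replicate 2, and it was 1 without 231BrM control replicate 1 or SKBrM3 doxycycline replicate 2.

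The difference between the doxycycline effects of the lines was called for 0 of 41 members and for 0.0231 percent of all genes. At an unadjusted limma p under 0.05, 2 members had a higher and 6 a lower effect in SKBrM3 than in 231BrM, against 4.31 and 6.86 percent of all genes. The lowest value was -0.60 for SLC6A9 (limma adjusted p = 0.197), and SLC38A12 had -0.46 (limma adjusted p = 0.239). Without 231BrM doxycycline replicate 2, SLC43A1, SLC6A9 and SLC38A12 were called. By array, 5 members were higher with doxycycline in both lines with no overlap, SLC36A1, SLC38A6, SLC6A6, SLC6A17 and SLC7A6OS, and 2 were lower in both, SLC36A4 and SLC38A2. These are 12.2 and 4.88 percent of the tested members, against 9.48 and 5.56 percent of all genes. In 9 members the arrays moved in opposite directions, against 8.39 percent of all genes.

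Without doxycycline the lines differed in 13 members, 5 higher in 231BrM and 8 higher in SKBrM3, with 39.7 percent of all genes called, 19.8 percent higher in 231BrM and 19.9 percent lower. The 13 of 41 are thus no more than the background of this comparison. Arrays did not overlap for 10 members higher and 18 lower in 231BrM, against 33.2 and 43.6 percent of all genes. SLC36A4 had the largest difference. It read 9.10 and 9.19 in 231BrM and 8.09 and 8.03 in SKBrM3, with no overlap and a difference of 1.09 (limma adjusted p = 0.000553). Its second probe set gave 1.25. The difference of SLC43A1 ran the other way, -0.84 (limma adjusted p = 0.000195), so the line with more SLC43A1 transcript before doxycycline was the one in which it rose. In 231BrM controls it read 5.03 and 5.09, a low signal just above the array medians.

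The leucine and glutamine carriers SLC7A5 (0.40), SLC1A5 (0.36) and SLC38A2 (0.24) were higher in 231BrM, with limma adjusted p-values of 0.0369, 0.0204 and 0.0322. The 3 SLC1A5 probe sets gave 0.34 to 0.36, whereas those of SLC38A2 gave 0.24, 0.03 and 0.01, and the other of SLC7A5 gave 0.17. SLC3A2, the partner of SLC7A5, differed by -0.05 and was not called. SLC6A9 was higher in 231BrM by 0.31 (limma adjusted p = 0.0173), although 2 of its other probe sets gave -0.11 and -0.15.

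The other called members were higher in SKBrM3, so the differences (231BrM minus SKBrM3) are negative. SLC7A11 had -0.29, with all 3 of its probe sets on that side. SLC7A6, a carrier that exchanges arginine for neutral amino acids, had -0.42 (limma adjusted p = 0.0368) and its neighbour SLC7A6OS -0.48 (limma adjusted p = 0.00283). SLC7A6 read 6.54 and 6.37 in 231BrM controls against 6.86 and 6.88, and SLC7A6OS 6.96 and 7.06 against 7.57 and 7.42. These 2 genes overlap in the RefSeq annotation. SLC36A1 had -0.26, and all 5 of its probe sets lay on that side, from -0.34 to -0.19. SLC6A3, SLC38A3, a glutamine carrier of liver and brain, and SLC6A18, a kidney carrier, had -0.35, -0.28 and -0.24 at signals between 4.23 and 5.17, near the filter.

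**Figure D5:**
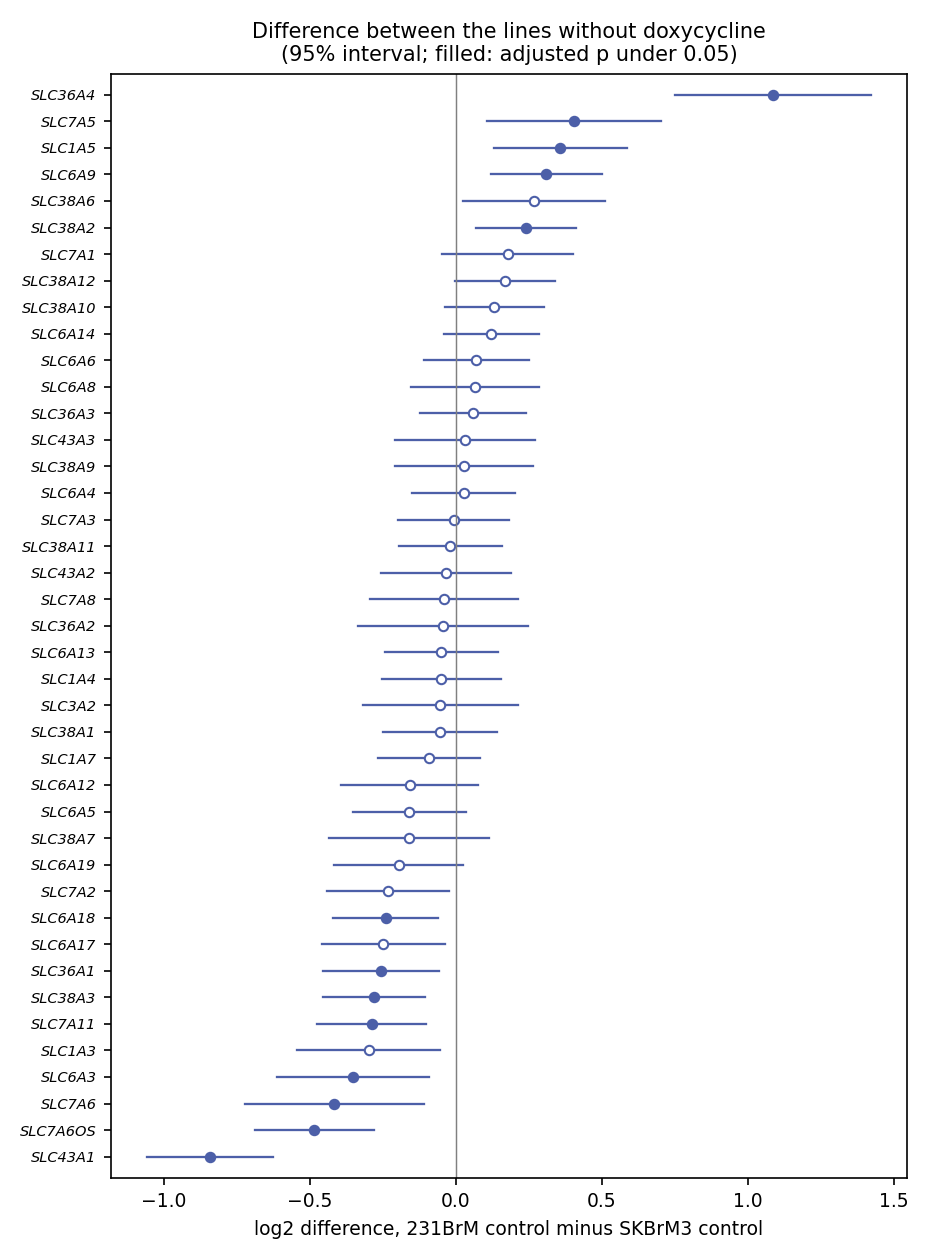
Log2 difference between the lines without doxycycline (231BrM control minus SKBrM3 control, horizontal axis) and 95% interval of the 41 tested members; filled points are called at a limma adjusted p under 0.05. SLC36A4 lies at 1.09 and SLC43A1 at -0.84, at the ends of the ranking.

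SLC36A4, SLC43A1 and SLC7A6OS kept their calls between the lines without each of the 8 arrays in turn, and the other 10 lost theirs without at least 1 array. The count fell from 13 to 5, 6, 4 and 6 without 231BrM control replicates 1 and 2 and SKBrM3 control replicates 1 and 2, and to 8 without either SKBrM3 doxycycline array. It was 17 without either 231BrM doxycycline array.

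Around the transporters, 8 lists of 152 genes were read, of which 130 were tested. Among 17 other amino acid carriers tested, 1 rose and 1 fell in SKBrM3, and 0 were called in 231BrM, against 3.43 and 0.162 percent of all genes. At an unadjusted limma p under 0.05, 3 were higher and 4 lower in SKBrM3 and 1 and 1 in 231BrM, against 10.4 and 9.81 percent and 6.15 and 3.74 percent of all genes. SFXN3, a mitochondrial sideroflexin, read 8.03 and 7.93 in SKBrM3 controls and 8.60 and 8.53 with doxycycline, a difference of 0.58 (limma adjusted p = 0.0377), or 0.37 and no call with the mean of all its probe sets. SLC25A15, which carries ornithine into mitochondria, read 8.38 and 8.37, then 7.95 on both treated arrays, a difference of -0.43 (limma adjusted p = 0.0238). In 231BrM their differences were 0.24 (0.07 without doxycycline replicate 1) and -0.21, neither called. The list's median in SKBrM3 was 0.05, against 0.01 over all genes.

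Of 13 glutamine and glutamate enzymes tested, 1 fell in each line, the same gene, and 0 rose. Over all genes, 0.162 percent were called lower in 231BrM and 2.28 percent in SKBrM3. At an unadjusted limma p under 0.05, 0 were higher and 1 lower in 231BrM, against 6.15 and 3.74 percent of all genes. In SKBrM3 those counts were 0 and 3, against 10.4 and 9.81 percent. PPAT, which spends glutamine in the opening step of purine synthesis, read 8.92 and 8.97 in 231BrM controls and 8.23 and 8.25 with doxycycline. In SKBrM3 it read 8.79 and 8.72, then 7.91 and 7.97. No treated array reached a control, and the differences were -0.71 in 231BrM (limma adjusted p = 0.0098) and -0.82 in SKBrM3 (limma adjusted p = 0.00128). The 231BrM call was lost without either 231BrM control array, at -0.73 and -0.68 and adjusted p-values of 0.182 and 0.234, and held without either doxycycline array.

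Of 30 lysosomal sensing and mTORC1 genes tested, DDIT4, an inhibitor of mTORC1, fell in both lines and none rose. Over all genes, 0.162 percent were called lower in 231BrM and 2.28 percent in SKBrM3. At an unadjusted limma p under 0.05, 0 were higher and 1 lower in 231BrM, against 6.15 and 3.74 percent of all genes. In SKBrM3 those counts were 6 and 4, against 10.4 and 9.81 percent. DDIT4 read 9.27 and 9.16 in 231BrM controls and 7.98 and 8.17 with doxycycline. In SKBrM3 it read 8.46 and 8.88, then 7.45 and 7.61. The difference was -1.14 in each line (limma adjusted p = 0.0243 and 0.00461). The 231BrM call was lost without either 231BrM control array (-1.08 and -1.19) and without either SKBrM3 doxycycline array, and the SKBrM3 call without SKBrM3 doxycycline replicate 1 (-1.06).

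Of 23 amino acid starvation response genes tested, 1 fell in 231BrM, DDIT4 again, and 3 fell in SKBrM3, against 0.162 and 2.28 percent of all genes. Beside DDIT4 the 3 were MTHFD2 of mitochondrial one-carbon metabolism, at -0.53, and XPOT, the nuclear exporter of transfer RNA, at -0.40 (limma adjusted p = 0.0112 and 0.0307). At an unadjusted limma p under 0.05, 1 was higher and 4 lower in 231BrM, against 6.15 and 3.74 percent of all genes. In SKBrM3 those counts were 2 and 6, against 10.4 and 9.81 percent. The kinase that senses uncharged transfer RNA, EIF2AK4 (GCN2), was called higher in the average of both lines, by 0.27 (limma adjusted p = 0.0421), but the mean of all its probe sets gave 0.016 (limma adjusted p = 0.9). Of 8 accessory and trafficking genes tested, TXNIP, an arrestin that removes glucose carriers from the surface, fell in SKBrM3, at -0.56 (limma adjusted p = 0.0238). That is 1 call lower, against 2.28 percent of all genes, and 0 were called in 231BrM. At an unadjusted limma p under 0.05, 1 was higher and 1 lower in 231BrM, and 0 and 3 in SKBrM3.

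In 3 lists 0 genes were called with doxycycline in either line by limma: 18 glutathione genes, 19 cytosolic aminoacyl-tRNA synthetases and 9 genes of branched-chain and tryptophan catabolism. With 3.43 and 0.162 percent of all genes called in SKBrM3 and 231BrM, lists of this size would hold few calls or none at the background share. At an unadjusted p under 0.05 in SKBrM3, the glutathione list held 1 higher and 1 lower gene, the synthetases 0 and 0, and the catabolic list 1 and 1. In 231BrM those counts were 0 and 0, 1 and 0, and 0 and 0. The shares over all genes were 10.4 percent higher and 9.81 percent lower in SKBrM3 and 6.15 and 3.74 percent in 231BrM. The SKBrM3 calls for SFXN3, SLC25A15, XPOT and TXNIP and the average call for EIF2AK4 were each lost without 6 of the 8 arrays in turn, and that for MTHFD2 without any 1 of the 4 SKBrM3 arrays, at -0.59 to -0.48.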

How the data were processed

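The authors deposited log2 values for each probe set, made with RMA per the submitters' processing notes. The RMA version is not given in the sources used here, nor is a genome build. RMA fits arrays to 1 distribution, so a change in total RNA per cell cannot be seen, and low values have no measured background. Of 49386 probe sets, 45259 name 1 gene, 1327 name several and 2713 besides control probe sets name none; 45178 symbols were updated by gene ID through RefSeq (GRCh38.p14), and 81 were kept. Genes over 4.41 (the 40th percentile) on at least 2 arrays were tested, 13002 in all. They were fitted with limma 3.58.1 (lmFit, eBayes, R 4.3.3) as 4 group means over 8 arrays, two-sided, with 4 residual and 4.59 prior degrees of freedom. Precision is limited by the number of arrays (median standard error for doxycycline in 1 line, 0.0968). Benjamini-Hochberg adjustment covered every gene tested.

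The members, lists and motifs were chosen with earlier results of these data known. Described in full were members called in any of 5 comparisons (up to 15 each by smallest p), 17 carriers whatever their values, the 5 members with the highest mean, MET, and up to 4 called genes per list and comparison. SLC1A7, SLC6A17, SLC6A19, SLC38A7, SLC36A2, SLC36A3, SLC6A4 and members named in counts were chosen after their values were seen. On simulated data of 13002 genes, changes of 0.5 were recovered for 53 percent of 100 genes in 231BrM and 55 percent in SKBrM3, and changes of 1 for 93 and 92 percent, with 7 and 15 unchanged genes called. Each simulated gene had the same spread in all 4 groups, so these shares cannot compare the lines. In the data, 68 genes lay over 2-fold apart between the 231BrM doxycycline arrays, against 0 or 1 within the other pairs. Alternatives covered array weights, an intensity trend, the arrays in the fit, the filter, the probe set, centring, a replicate block and each array left out.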

Additional observations from a re-analysis of the deposited data

Results flagged for a closer look

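In 9 members, 22 percent of the 41 tested, both doxycycline arrays lay beyond both controls in 1 direction in 231BrM and in the opposite direction in SKBrM3, against 8.39 percent of all genes tested. The SKBrM3 minus 231BrM difference of the doxycycline effects was tested with limma over all genes and was called for 0 of the 9, with adjusted p-values from 0.197 to 0.591. The effect was lower in SKBrM3 by -0.60 for SLC6A9, -0.46 for SLC38A12, -0.40 for the intestinal and renal neutral carrier SLC6A19, -0.34 for SLC38A11, -0.30 for SLC38A3 and -0.24 for the neuronal glycine carrier SLC6A5. It was higher in SKBrM3 by 0.27 for the cationic carrier SLC7A2, 0.24 for SLC1A4 and 0.16 for SLC6A14. Over all probe sets that pass the filter, its sign was mixed for SLC6A9 (-0.60 to 0.52), SLC38A12 (-0.46 to 0.18), SLC1A4 (-0.28 to 0.24) and SLC7A2 (-0.30 to 0.76). For SLC6A19 it was negative throughout (-0.40 to -0.02). SLC38A11, SLC38A3, SLC6A5 and SLC6A14 had 1 such probe set each. SLC38A11 exceeded the filter of 4.4066 only on the 231BrM doxycycline arrays, at 4.515 and 4.413, and read 4.14 to 4.27 elsewhere. It was thus tested only through the group where it was high, and its place among the 9 carries that limit. SLC6A14 carries a like limit. It exceeded the filter only on the 231BrM controls, at 4.444 and 4.414, and the SKBrM3 doxycycline arrays, at 4.417 and 4.444. It was thus tested only through the groups whose height makes the opposite directions. Without 231BrM doxycycline replicate 1, whose actin 3' minus 5' signal stood above that of the other arrays, the difference was called for 0 of the 9 and was -0.61 for SLC6A9, -0.42 for SLC38A12, -0.44 for SLC6A19, -0.29 for SLC38A11, -0.28 for SLC38A3, -0.17 for SLC6A5, 0.37 for SLC7A2, 0.14 for SLC1A4 and 0.15 for SLC6A14. The value for SLC1A4 moved by over 1.5 times.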

How the results depend on the processing

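The numbers of called members were 0 in 231BrM, 4 in SKBrM3, 2 in the average, 0 in the difference and 13 between the lines. Array weights gave 7 in SKBrM3. The mean of all probe sets gave 1 there and 1 in the average, and the probe set with the largest interquartile range gave 1 in SKBrM3 and 5 between the lines. Leaving out 1 array gave 0 to 5, 1 to 7, 0 to 10, 0 to 3 and 4 to 17 in that order; an arm left with 1 array takes its spread from the other groups. Other probe sets of called members, added after seeing the data, reversed SLC6A9 in SKBrM3 (0.39) and between the lines (-0.11, -0.15), SLC38A12 in SKBrM3 (0.19), and SLC36A1 in SKBrM3 (-0.036, -0.032, -0.36) and in the average (-0.0051, -0.14). The cause was not tested.

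Over 19 called member values and 318 refits under other settings, 223 kept the call, 95 lost it and 0 changed sign. Over all 41 tested members, 83 refits of the 5 comparisons gained 52 calls, of 19 members. SLC43A1 with doxycycline in SKBrM3 (0.74 to 0.94) and between the lines, SLC36A4 (1.04 to 1.25) and SLC7A6OS between the lines kept their calls in 17 of 17. SLC43A1 and SLC7A6OS have 1 probe set each, so alternatives that change or average the probe set could not change their differences. Same-numbered arrays did not deviate together throughout (correlations of -0.11 to 0.24). The highest, 0.24, was between 231BrM control and 231BrM doxycycline. With 2 arrays per group these correlations cannot decide whether the numbers pair the samples. With the replicate block the counts were 0, 3, 2, 0 and 11, and SLC36A1 was lost in SKBrM3. The fit to only the arrays compared gives no average or difference. Scanner intensities were not analysed here, so the signal over background of low members is unknown.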

Other observations

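A probe set shared by SLC6A8 and its pseudogenes SLC6A10P and SLC6A10PB read 3.29 to 3.59 over the 8 arrays, and one shared by the SLC7A5 pseudogenes SLC7A5P1 and SLC7A5P2 and SMG1 pseudogenes read 3.76 to 4.11. Both lie under the filter of 4.41 on all 8 arrays and entered no comparison.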
